A study of Mus musculus with 17 samples.

Results

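Gene expression in subcutaneous tumours grown from ID8 cells, a mouse line from ovarian surface epithelium, was compared with that of cells in ascites, the fluid that fills the peritoneal cavity in ovarian cancer. The libraries were chosen by their labels alone and number 8 of the 17 in the series. The 2 subcutaneous tumours, numbered 2 and 3 in their titles, came from ID8 cells injected under the skin. The protocol places these tumours on the flanks, while the tissue label names the scruff. The 6 ascites libraries are 3 of a first and 3 of a second tap with syringe and needle, taken after ID8 cells had been put into the bursa of the right ovary and had spread. ID8 cells of both groups had been grown in DMEM with 10% fetal bovine serum before injection. The strain, age and number of host mice, and which taps came from 1 mouse, were not given in the sources used here. The samples are therefore treated as separate, and p-values measure only the spread between these samples, which may be partly technical. The rest of the series consists of orthotopic tumours, tumours on the intestine, the cultured line and healthy ovary and intestine, and these libraries entered the choice of genes tested, the scaling and the estimate of the spread.

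A solid tumour recruits vessels and fibroblasts from the tissue around it. Endothelial cells line the vessels, pericytes wrap them, and fibroblasts lay down collagen and other matrix. Skin adds keratinocytes, hair follicles, fat and draining lymphatic tissue, whereas the peritoneal cavity holds free-floating resident macrophages with a gene programme of their own. A library of bulk RNA reads the tumour cells and all these host cells at once.

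The subcutaneous libraries held 24145706 and 15014218 counts in tumours 2 and 3, and the ascites libraries held 24554458 to 38860082. The 2 subcutaneous tumours correlated with each other at 0.804 (Pearson's r of log CPM across genes, which are not independent replicates), against 0.868 to 0.976 between ascites libraries. At least 1 count was seen for 33393 genes in subcutaneous tumour 3, for 32846 and 32775 genes in first tap 3 and second tap 1, and for 23025 to 24003 genes in the other 5 libraries. Genes of the mitochondrial genome took 14.0% and 10.7% of counts in the subcutaneous tumours and 2.27% to 6.54% in ascites. The names of both subcutaneous libraries carry the prefix SCT, and those of the ascites libraries S or SM, so a library series marked by the prefix and the site cannot be told apart.

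Genes of vessels (11 of 14 endothelial genes), fibroblasts (12 of 16) and epidermis (13 of 26) were higher in the subcutaneous tumours than in ascites, and macrophage genes (7 of 15) were lower. The 2 tumours were also unlike each other, the levels of the fat and B cell lists being higher in tumour 2 and those of the keratinocyte and collagen lists higher in tumour 3. Of 22671 genes tested, 1233 (5.44%) were higher and 199 (0.878%) lower in the subcutaneous tumours, which is 6.32% in all, at an adjusted p under 0.05 by edgeR's quasi-likelihood test. Both tumours lay above all 6 ascites libraries in 11.5% of the genes tested and below all 6 in 8.9%. Of the genes called higher, 1014 had no overlap between the groups and in 219 at least 1 tumour did not exceed every ascites library. All 199 genes called lower had no overlap. With 1 ascites library left out, calls numbered 950 without first tap 1 (808 higher), 838 without second tap 2 (759 higher, 79 lower) and 815 without second tap 3 (751 higher, 64 lower), and 308 were lower without first tap 2. With a term that set the S prefix apart from SM and SCT, 1069 genes were called. That term kept SCT and SM together, so it did not adjust for the SCT prefix. Against the 4 ascites libraries with the SM prefix alone, 624 were called. The median log2 fold change was 4.13 among genes called higher, -1.92 among those called lower and 0.06 over all genes tested. These values are shown in the plot of fold change against mean level.

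**Figure D1:**
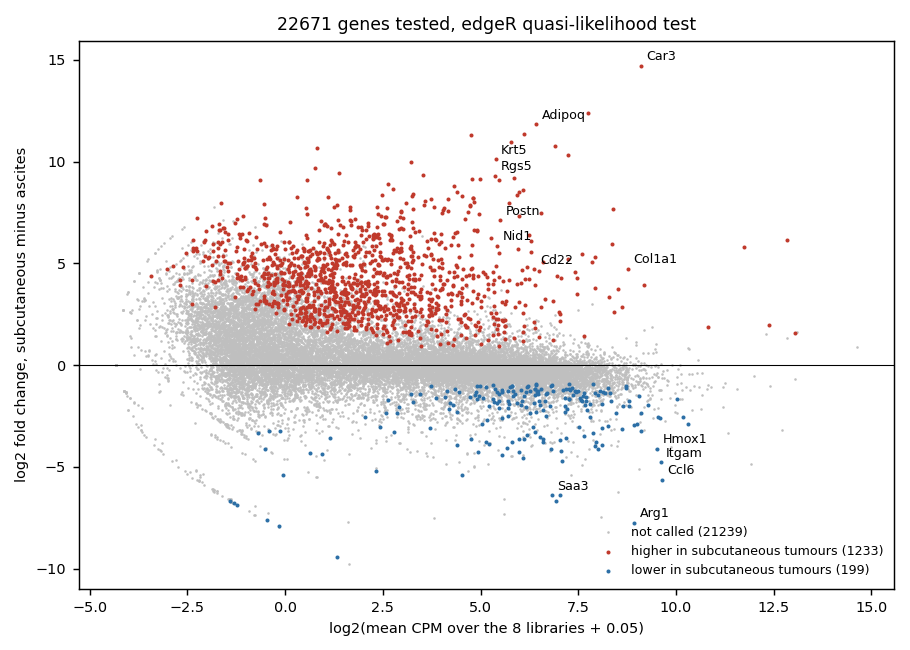
Log2 fold change (subcutaneous minus ascites) of each of the 22671 genes tested, against log2 of its mean CPM over the 8 libraries plus 0.05. Red points are the 1233 genes called higher and blue points the 199 called lower in subcutaneous tumours. The highest named point is Car3 at 14.71, and Arg1 stands at -7.73.

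The 2 tumours differed from each other in many of the genes called higher. Among the 1233 genes called higher, CPM (with 0.5 added) was within 4-fold between the tumours in 747, over 4-fold higher in tumour 2 in 394, and over 4-fold higher in tumour 3 in 92. Among the 199 genes called lower it was within 4-fold in 193, over 4-fold higher in tumour 2 in 2 and over 4-fold higher in tumour 3 in 4. Over all 22671 genes tested it was within 4-fold in 19521. With tumour 2 left out 395 genes were called higher and 11 lower. With tumour 3 left out 1230 were called higher and 160 lower. In these 2 fits the lone subcutaneous tumour is assumed to vary like the other groups.

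**Figure D2:**
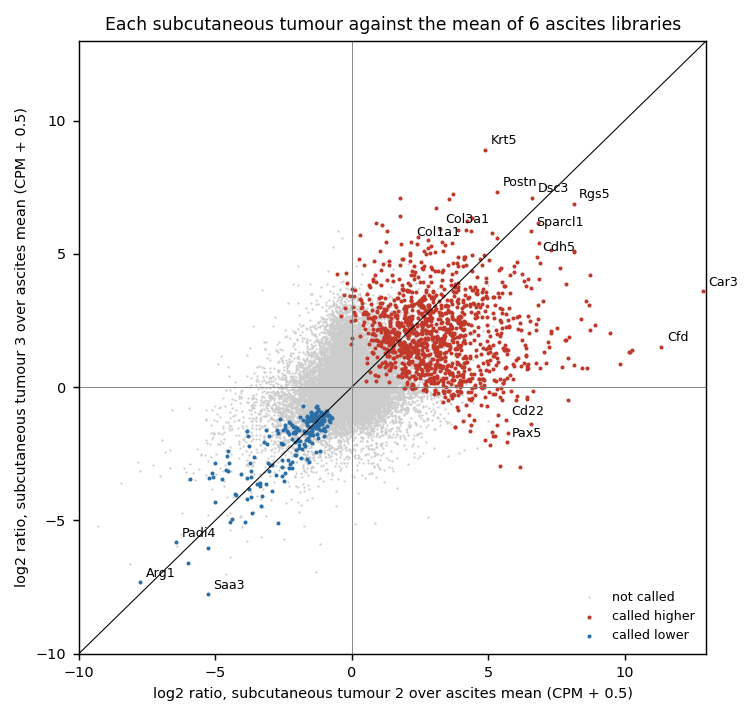
Log2 ratio of subcutaneous tumour 3 (vertical) and of subcutaneous tumour 2 (horizontal) over the mean of 6 ascites libraries, on CPM plus 0.5, for each gene tested. Fat genes such as Car3 and Cfd lie to the right, near tumour 2 alone, Krt5 and Postn lie above the diagonal, Cd22 and Pax5 lie below 0 in tumour 3, and Arg1, Padi4 and Saa3 lie low in both.

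By the rule for named genes, the 15 largest rises were led by genes of fat. Car3 (ENSMUSG00000027559), the carbonic anhydrase of fat and muscle, had 4367 and 6.58 CPM in tumours 2 and 3 and a lowest, median and highest level of 0, 0 and 0.296 CPM in ascites. Tumour 2 thus stood far above tumour 3, and both stood above every ascites library. The log2 fold change was 14.71 ± 2.00 (adjusted p = 0.00205). Cfd, the complement factor adipsin made by fat cells, rose by 12.40 ± 1.80 (adjusted p = 0.00276), the adipose hormone Adipoq by 11.84 ± 1.69 (adjusted p = 0.00264), Cyp2e1, a cytochrome P450, by 11.37 ± 1.86 (adjusted p = 0.00504), and the lipid droplet protein Cidec by 10.98 ± 1.65 (adjusted p = 0.00342). Pck1, the key enzyme of gluconeogenesis and of glycerol supply in fat, Thrsp, a lipogenic regulator, Acss3, an acyl-CoA synthetase, Lep, the hormone leptin, Pnpla3, a lipase, and Adrb3, the adrenergic receptor of fat, rose by 9.14 to 10.74. In these 11 genes tumour 2 was the higher tumour. Glycam1, a mucin of lymph node vessels, rose by 11.28 ± 1.61 (adjusted p = 0.00265) with 215 and 0.393 CPM in tumours 2 and 3 and 0 to 0.153 CPM in ascites. The remaining 3 were Krt5, Rgs5 and Scn7a, a sodium channel with 194 and 23.6 CPM in tumours 2 and 3 and 0 to 0.727 CPM in ascites. Of the 15 genes, Car3, Krt5, Rgs5 and Scn7a were called without tumour 2, and all 15 were called without tumour 3. By voom with quality weights 4 were called, in a fit of the 8 libraries alone 11, and against either tap alone 10.

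The 15 largest falls were led by genes of myeloid cells. Arg1 (ENSMUSG00000019987), the arginase of alternatively activated macrophages, had 2.52 and 3.53 CPM in tumours 2 and 3 and a lowest, median and highest level of 328, 584 and 1084 CPM in ascites. The lowest ascites library stood far above both tumours. The log2 fold change was -7.73 ± 1.70 (adjusted p = 0.02). Fcna, a ficolin of macrophages, fell to 2.00 and 1.18 CPM in the tumours, against 17.1 to 357 CPM in ascites. Next came Padi4, a peptidylarginine deiminase, Saa3, an acute phase serum amyloid, Ccl6, a chemokine, Fpr1, the formyl peptide receptor, Itgam, the integrin CD11b, Prg4, the lubricin of mesothelial and peritoneal macrophages, and Ccr1, a chemokine receptor. The others were Trem2, a lipid receptor of macrophages, Wfdc17, Sel1l3, Tbxas1, the thromboxane synthase, C5ar1, the receptor of complement C5a, and Hmox1, haem oxygenase. Their log2 fold changes ran from -6.66 to -4.09, both tumours being below all 6 ascites libraries in each, as the rule required. Of the 15 genes, Hmox1 was called with either tumour left out, at -4.74 (adjusted p = 0.0302) without tumour 2 and -3.65 (adjusted p = 0.0296) without tumour 3, while Trem2 and Sel1l3 were called without tumour 3 only. Arg1 stood at -7.51 (adjusted p = 0.153) without tumour 2 and -8.00 (adjusted p = 0.0943) without tumour 3, so its call needed both tumours. Of the 15 falls, 3 were called by voom with quality weights, 3 in a fit of the 8 libraries alone, 5 against the first tap alone, 7 against the second tap alone and 8 with no filter on low counts. Without second tap 3, 9 were called, and without second tap 2, 10. The plot of 12 genes by library sets some of these beside genes of the stroma.

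**Figure D3:**
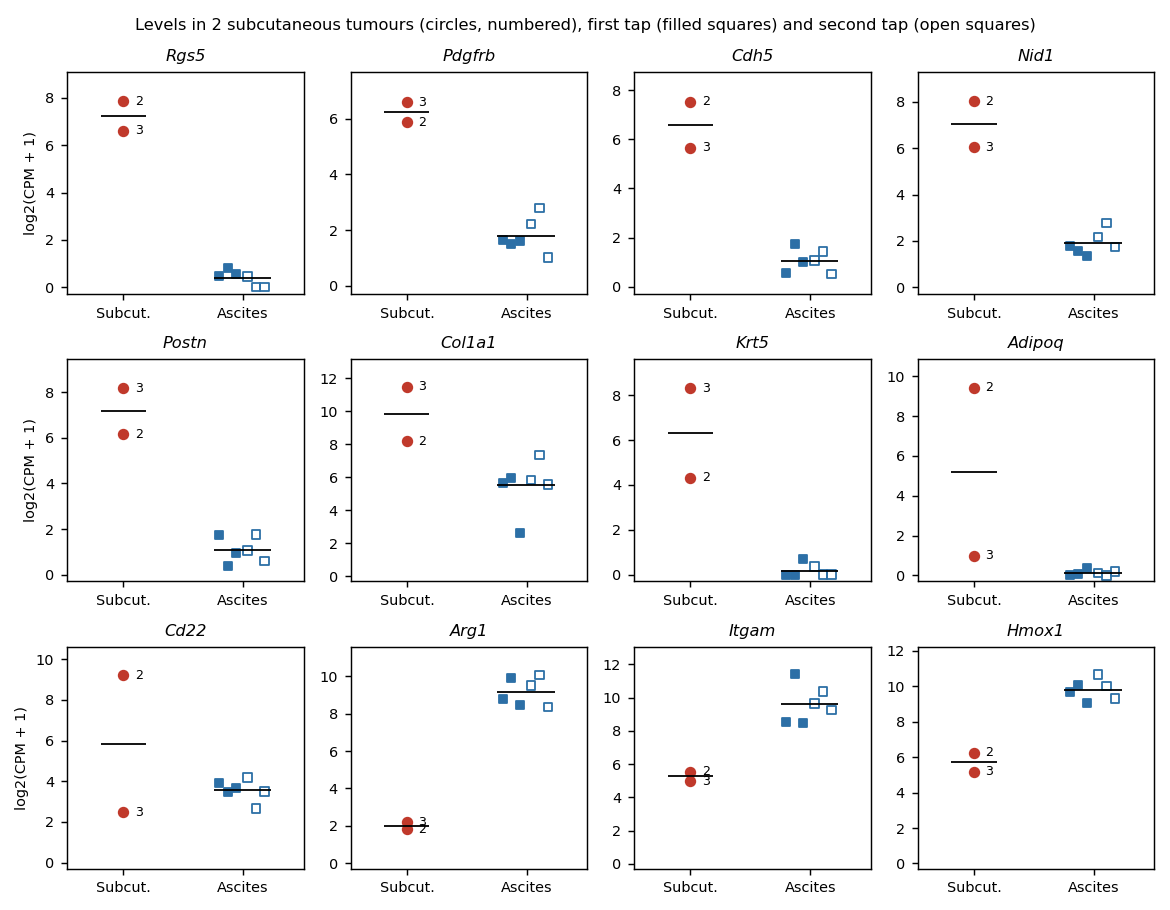
Level of 12 genes as log2(CPM + 1) in subcutaneous tumours (left, circles with the tumour's number) and in ascites (right, filled squares for the first tap and open squares for the second). Lines mark the mean of each group. Rgs5, Pdgfrb, Cdh5, Nid1 and Postn are high in both tumours, Krt5 and Col1a1 are highest in tumour 3, Adipoq and Cd22 are high in tumour 2 alone, and Arg1, Itgam and Hmox1 are lower in both tumours than in each of 6 ascites libraries.

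The promoters of 5 of these genes are printed to show their start regions. Those higher were a gene of pericytes (Rgs5), of fat (Adipoq) and of basal epidermis (Krt5). Those lower were 2 members of the large peritoneal macrophage list (Saa3 and Padi4). Each runs from 250 bases before to 50 bases after the start and is the RefSeq sequence of GRCm38.p6, and 23 of the 30 rule-named genes had an entry. The 3 motifs searched on both strands were the TATA box TATAAA, the C/EBP core TTGCNNAA, bound by factors of fat and myeloid cells, and the Ets core AGGAAGT, of which none overlaps another here. They occur in 13.6%, 10.8% and 9.35% of 32851 RefSeq promoters of the same length. Capitals mark a match. Saa3 holds a C/EBP core that begins 99 bases before the start, read on the other strand, and Padi4 a TATA box that begins 31 bases before it. The letters of the 3 motifs are not in the windows of Rgs5, Adipoq and Krt5. The regions are chr1:169655251-169655550 on the plus strand for Rgs5, chr16:23146286-23146585 on the plus strand for Adipoq, chr15:101712856-101713155 on the minus strand for Krt5, chr7:46715627-46715926 on the minus strand for Saa3 and chr4:140774154-140774453 on the minus strand for Padi4.
Rgs5: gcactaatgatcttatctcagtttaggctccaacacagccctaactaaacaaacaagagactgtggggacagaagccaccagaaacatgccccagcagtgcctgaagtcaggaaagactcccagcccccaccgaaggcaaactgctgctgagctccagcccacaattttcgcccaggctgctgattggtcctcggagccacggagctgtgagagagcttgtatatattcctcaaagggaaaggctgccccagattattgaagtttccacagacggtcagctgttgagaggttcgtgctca
Adipoq: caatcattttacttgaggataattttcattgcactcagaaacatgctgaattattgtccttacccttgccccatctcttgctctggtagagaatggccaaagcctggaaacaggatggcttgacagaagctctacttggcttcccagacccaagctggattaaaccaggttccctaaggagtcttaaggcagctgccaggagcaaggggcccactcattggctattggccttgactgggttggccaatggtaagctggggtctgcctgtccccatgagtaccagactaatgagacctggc
Krt5: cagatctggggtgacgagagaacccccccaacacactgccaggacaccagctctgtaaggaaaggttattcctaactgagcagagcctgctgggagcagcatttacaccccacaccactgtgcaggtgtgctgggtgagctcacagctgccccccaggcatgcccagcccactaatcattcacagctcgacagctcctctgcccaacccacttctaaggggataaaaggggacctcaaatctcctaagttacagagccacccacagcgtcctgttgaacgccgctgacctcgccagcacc
Saa3: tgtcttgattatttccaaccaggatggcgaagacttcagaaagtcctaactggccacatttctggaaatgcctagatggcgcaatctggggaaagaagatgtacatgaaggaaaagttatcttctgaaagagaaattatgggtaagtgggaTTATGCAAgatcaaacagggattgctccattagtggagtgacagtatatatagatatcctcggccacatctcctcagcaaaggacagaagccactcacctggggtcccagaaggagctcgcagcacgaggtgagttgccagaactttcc
Padi4: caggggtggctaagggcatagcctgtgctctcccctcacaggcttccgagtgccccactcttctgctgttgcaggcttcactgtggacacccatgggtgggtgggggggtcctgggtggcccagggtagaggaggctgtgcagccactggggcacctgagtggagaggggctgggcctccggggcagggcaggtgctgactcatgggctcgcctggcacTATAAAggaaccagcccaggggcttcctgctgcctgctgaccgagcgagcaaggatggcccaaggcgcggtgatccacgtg

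Genes of endothelial cells were higher in both tumours, in 11 of 14 list members, with a list median of 4.69. Cdh5, the VE-cadherin of endothelial junctions, had 184 and 49.5 CPM in tumours 2 and 3 and a lowest, median and highest level of 0.441, 1.06 and 2.31 CPM in ascites. Its groups did not overlap, and it rose by 6.63 ± 0.64 (adjusted p = 0.000406). Pecam1, the adhesion molecule CD31, had 268 and 60.1 CPM in the tumours and 5.66 to 12.9 CPM (median 9.47) in ascites, and rose by 4.15 ± 0.41 (adjusted p = 0.000434). Egfl7, a secreted vessel factor, rose by 5.24 ± 0.50 (adjusted p = 0.000365), Tek, the angiopoietin receptor, by 5.18 ± 0.62 (adjusted p = 0.000989), and Kdr, the VEGF receptor 2, by 2.84 ± 0.54 (adjusted p = 0.0105). Kdr was about as high in tumour 3 (174 CPM) as in tumour 2 (154 CPM), whereas Cdh5 and Pecam1 were higher in tumour 2. Esam and Flt1, of the same list, had 1054 and 3318 counts over both tumours and 20980 and 20465 over all ascites libraries, not scaled for depth. No endothelial member was called lower. Endothelial genes were called in 9 members without tumour 2 and in 10 without tumour 3. Of 7 lymphatic endothelial genes 2 were higher, Mmrn1 by 4.18 ± 0.47 (adjusted p = 0.000859) and Stab2, a hyaluronan receptor, by 3.58 ± 0.60 (adjusted p = 0.00554), while Prox1, the master regulator of lymphatic identity, stood at 25.6 and 10.6 CPM in the tumours and 0 to 4.55 CPM in ascites and did not pass (adjusted p = 0.13). The lymphatic markers Lyve1 and Pdpn had 2079 and 2649 counts over both tumours and 49544 and 28212 over all ascites libraries, not scaled for depth. No lymphatic member was called lower. In bulk RNA, a smaller number of cells of a type and less RNA per cell cannot be told apart.

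Pericyte genes were higher in 5 of 9 members, with a median of 3.94, in 4 without tumour 2 and in 6 without tumour 3. Rgs5 (ENSMUSG00000026678), the G protein regulator that marks pericytes, had 231 and 96.8 CPM in tumours 2 and 3 and a lowest, median and highest level of 0, 0.369 and 0.756 CPM in ascites. Each tumour stood at least 96.8 CPM and no ascites library reached 1 CPM. Rgs5 rose by 9.30 ± 0.78 (adjusted p = 0.000177), and by 8.54 (adjusted p = 0.000603) without tumour 2 and 9.80 (adjusted p = 9.15e-05) without tumour 3. Pdgfrb, the receptor by which vessels recruit pericytes, had 57.6 and 95.0 CPM in the tumours, against 1.03 to 5.92 CPM (median 2.11) in ascites, and rose by 4.83 ± 0.44 (adjusted p = 0.000307). The proteoglycan NG2, encoded by Cspg4, rose by 3.53 ± 0.37 (adjusted p = 0.000441), and Notch3 by 4.59 ± 0.54 (adjusted p = 0.000949). Of 10 smooth muscle genes 4 were higher, among them the myosin Myh11 by 5.00 ± 0.74 (adjusted p = 0.00321) and the actin Acta2 by 2.46 ± 0.45 (adjusted p = 0.00879). Without tumour 2 only Myh11 of the smooth muscle list was called.

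Fibroblast genes were higher in 12 of 16 members, with a median of 4.24. Cd34, a surface sialomucin of dermal fibroblasts and vessels, had 24.5 and 24.7 CPM in tumours 2 and 3 and a lowest, median and highest level of 0.849, 1.27 and 1.78 CPM in ascites. The 2 tumours were nearly equal for Cd34, which rose by 4.22 ± 0.43 (adjusted p = 0.000434). Thy1 was likewise near equal in the tumours at 55.4 and 49.6 CPM, against 0.771 to 8.47 CPM in ascites, and rose by 4.19 ± 0.50 (adjusted p = 0.000989). Dpt, a dermal matrix protein, rose by 5.87 ± 0.77 (adjusted p = 0.00159) and Clec3b, tetranectin, by 4.84 ± 0.66 (adjusted p = 0.00205), both being higher in tumour 2. Without tumour 2 the fibroblast count was 11 and without tumour 3 it was 9.

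Fibrillar and network collagens were higher in 10 of 23 members (median 2.65), in 10 without tumour 2 (median 3.45) and in 4 without tumour 3 (median 0.50). Col1a1, the main chain of type I collagen, had 288 and 2815 CPM in tumours 2 and 3 and a lowest, median and highest level of 5.32, 53.0 and 160.2 CPM in ascites. Tumour 2 lay within 2-fold of the highest ascites library, and tumour 3 lay far above it. Col1a1 rose by 4.73 ± 0.88 (adjusted p = 0.00926). Col3a1 had 239 and 1576 CPM in the tumours, against 3.25 to 67.9 CPM (median 20.7) in ascites, and rose by 5.30 ± 0.81 (adjusted p = 0.00368). Col8a1, a short-chain collagen of vessel walls, rose by 7.18 ± 0.82 (adjusted p = 0.000886) with 14.4 and 175 CPM in the tumours. Col5a3 was higher in tumour 2, at 40.7 and 21.4 CPM, and rose by 4.25 ± 0.49 (adjusted p = 0.000886). The rise did not extend to every chain. Col4a2, Col4a5 and Col4a6, of type IV collagen, had 11858, 1471 and 1249 counts over both tumours. Over all ascites libraries they had 93173, 14032 and 13226, not scaled for depth. No collagen of the list was called lower.

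Laminins, nidogens and perlecan were higher in 5 of 15 members, with a median of 0.25, and in 3 with either tumour left out. Nid1, the nidogen that links laminin to collagen IV, had 261 and 64.9 CPM in tumours 2 and 3 and a lowest, median and highest level of 1.57, 2.38 and 5.89 CPM in ascites. The lower tumour was above the highest ascites library, and Nid1 rose by 5.86 ± 0.47 (adjusted p = 0.000159). The called laminin chains included Lama2 at 6.21 ± 1.13 (adjusted p = 0.00818) and Lama4 at 3.10 ± 0.60 (adjusted p = 0.0107), while Lama5, the chain of epithelial and endothelial basement membranes, had 126 and 330.3 CPM in the tumours and 336 to 993 CPM in ascites (adjusted p = 0.136).

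Elastic and matricellular genes were higher in 12 of 20 members (median 3.79), in 10 without tumour 2 and in 9 without tumour 3. Sparcl1, a secreted matricellular protein, had 80.7 and 49.1 CPM in tumours 2 and 3 and a lowest, median and highest level of 0.0735, 0.277 and 0.994 CPM in ascites, without overlap. It rose by 7.61 ± 0.62 (adjusted p = 0.000159). Postn, the periostin of stromal matrix, had 70.6 and 286 CPM in the tumours and 0.302 to 2.40 CPM (median 1.01) in ascites, and rose by 7.12 ± 0.71 (adjusted p = 0.000434). Fbn1, the microfibril protein, rose by 4.83 ± 0.63 (adjusted p = 0.00163) and Tnc, tenascin C, by 4.01 ± 0.54 (adjusted p = 0.00205). Not all such genes rose. Eln, elastin, had 1176 counts over both tumours and 37823 over all ascites libraries, and Thbs1 8399 and 170636, not scaled for depth. No member of the elastic and matricellular list was called lower. Metalloproteinases and inhibitors were higher in 5 of 18 members and lower in 0, with a median of 0.47. Their summed level was 637 and 2386 CPM in tumours 2 and 3 and 1629 to 3547 CPM in ascites. The inhibitor Timp2 had 15618 counts over both tumours and 323204 over all ascites libraries, not scaled for depth. Mmp2, a gelatinase made by stromal cells, had 47.4 and 537 CPM in the tumours, against 0.803 to 6.35 CPM (median 3.38) in ascites, and rose by 6.42 ± 0.82 (adjusted p = 0.00154), while Mmp3, stromelysin, rose by 7.50 ± 1.03 (adjusted p = 0.00215).

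Keratinocyte and epidermal genes were higher in 13 of 26 members, with a median of 4.18, in 13 without tumour 2 and in 8 without tumour 3. The summed level of the list was 551 and 1800 CPM in tumours 2 and 3 and 84.5 to 305 CPM in ascites. Krt5 (ENSMUSG00000061527), the basal keratin of stratified epithelium, had 19.1 and 315 CPM in tumours 2 and 3 and a lowest, median and highest level of 0, 0 and 0.650 CPM in ascites. Both tumours were above ascites, tumour 3 by more, and Krt5 rose by 10.12 ± 1.52 (adjusted p = 0.00342). Dsc3, a desmosomal cadherin, had 65.7 and 93.6 CPM in the tumours and 0 to 0.535 CPM in ascites and rose by 8.80 ± 1.05 (adjusted p = 0.000989). Ly6d, a surface protein of squamous epithelium and of early B cells, was higher in tumour 2, at 205 and 29.1 CPM, against 0.343 to 2.25 CPM (median 1.22) in ascites, and rose by 6.60 ± 0.70 (adjusted p = 0.000547). Krt10, the keratin of the suprabasal layers, rose by 3.73 ± 0.49 (adjusted p = 0.00159) and Lad1, an anchoring protein, by 2.94 ± 0.45 (adjusted p = 0.00359). Trp63, the factor p63 that specifies basal cells, rose by 4.83 ± 0.83 (adjusted p = 0.00622). Krt14, the partner of Krt5, had 8.77 and 229 CPM in tumours 2 and 3, while ascites ranged from 0.858 to 84.1 CPM (median 14.9). It did not pass (adjusted p = 0.424), the groups overlapping. The terminal marker Ivl, involucrin, stood at 0.174 and 2.21 CPM in the tumours and did not pass, and Lor, of the cornified layer, rose by 4.85 ± 0.97 (adjusted p = 0.0127) with 2.08 and 12.3 CPM.

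Of 12 hair follicle and sebaceous genes 2 were higher. Elovl3, a lipid elongase of sebaceous glands and brown fat, rose by 4.75 ± 1.18 (adjusted p = 0.0354), and Lgr5, a receptor of follicle stem cells, by 2.88 ± 0.72 (adjusted p = 0.0364). Lgr5 was not particular to tumours under the skin, with 24.7 CPM in the cultured line and 51.2 to 138 CPM in the orthotopic tumours. Lgr5 had 6.64 and 89.5 CPM in tumours 2 and 3 and 3.07 to 10.3 CPM in ascites, so the call rests on tumour 3, and its log2 fold change without tumour 3 was 0.02 (adjusted p = 0.999). The hair shaft and sheath genes Krt25, Krt71 and Tchh reached 9.57, 5.15 and 12.2 CPM in tumour 3 and at most 0.261 CPM in tumour 2. They did not pass.

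White adipocyte genes were higher in 13 of 16 members, with a median of 7.74. Their summed level was 18299 CPM in tumour 2 and 525 CPM in tumour 3, and 348 to 850 CPM in ascites. Adipoq (ENSMUSG00000022878), adiponectin, had 686 and 0.982 CPM in tumours 2 and 3 and a lowest, median and highest level of 0, 0.0633 and 0.306 CPM in ascites. Tumour 3 stood little above ascites and far below tumour 2. Without tumour 2, Car3 was the 1 gene of 16 called (median 1.55). Without tumour 3, 15 of 16 were called. Of 12 brown adipocyte genes 6 were higher, and Dio2, the deiodinase that activates thyroid hormone, was the 1 called without tumour 2, at 6.43 (adjusted p = 0.00461). Dio2 had 5.30 and 12.6 CPM in tumours 2 and 3, against 0 to 0.266 CPM (median 0.159) in ascites. Ucp1, the uncoupling protein that defines brown fat, had 76.8 and 0.491 CPM in the tumours and 0.574 to 4.75 CPM in ascites and did not pass (adjusted p = 0.0562). No skeletal muscle gene of 15 was called by edgeR, with a median of 2.47. Their level was 2.26 and 2.18 in tumours 2 and 3 and 0.851 to 1.54 in ascites, as mean log2(CPM + 1). Both tumours lay above all ascites libraries in 8 members and below all in 1, against 11.5% and 8.9% of all genes tested. Acta1 stood at 7.08 and 3.53 CPM in the tumours and 0 to 0.765 CPM in ascites and did not pass (adjusted p = 0.181).

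B cell genes were called higher in 13 of 15 members, with a median of 4.56, and in 12 of these 13 genes tumour 3 lay within or below the ascites range. Cd22, an inhibitory lectin receptor of B cells, had 593 and 4.57 CPM in tumours 2 and 3 and a lowest, median and highest level of 5.38, 11.1 and 17.2 CPM in ascites. Tumour 3 was below all 6 ascites libraries and tumour 2 above all 6, and the log2 fold change of 4.71 ± 0.93 (adjusted p = 0.0123) lies between 2 unlike tumours. Cr2, the complement receptor of B cells and follicular dendritic cells, had 579 and 4.71 CPM in the tumours and 2.66 to 10.0 CPM in ascites. Without tumour 2 its log2 fold change was -0.38 (adjusted p = 0.807), and no B cell gene was called, with a median of -1.32. Without tumour 3, 14 of 15 were called. Ebf1, a factor of early B cells that is also made in fat and stroma, was the 1 with both tumours above ascites, at 310.1 and 22.3 CPM against 0.886 to 6.74 CPM.

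Lymph node stroma and homing genes followed tumour 2 as well, with 5 of 9 higher, none called by edgeR without tumour 2 and 6 called without tumour 3. Glycam1 and Madcam1, ligands of lymphocyte homing receptors, had 215 and 6.95 CPM in tumour 2 and 0.393 and 0.589 CPM in tumour 3. Chst4, of the same list, had 156 counts over both tumours and 4448 over all ascites libraries, not scaled for depth. No member was called lower. Cxcl13, the chemokine that draws B cells into follicles, had 598 and 6.23 CPM in tumours 2 and 3 and 7.11 to 74.1 CPM (median 31.0) in ascites (adjusted p = 0.102). Of 9 plasma cell genes 2 were higher, Mzb1 and Pou2af1, both through tumour 2, while Jchain, the joining chain of antibodies, had 13.6 and 1.18 CPM in the tumours and 0.458 to 4.51 CPM in ascites.

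T cell genes were higher in 12 of 19 members (median 3.23). In 10 of the 19 both tumours lay above all ascites libraries, against 11.5% of all genes tested. Cd4, the helper T cell co-receptor, had 62.3 and 5.74 CPM in tumours 2 and 3 and a lowest, median and highest level of 0.0735, 1.70 and 2.99 CPM in ascites. Tumour 2 was over 10-fold above tumour 3, which was above the highest ascites library, and Cd4 rose by 4.50 ± 0.84 (adjusted p = 0.00936). Icos, a costimulator, rose by 3.75 ± 0.65 (adjusted p = 0.00624) with 23.2 and 3.14 CPM in the tumours, against 0.367 to 2.31 CPM (median 0.883) in ascites. Foxp3, the factor of regulatory T cells, had 13.5 and 7.41 CPM in the tumours and 0.801 to 4.88 CPM (median 2.03) in ascites, and rose by 2.26 ± 0.56 (adjusted p = 0.033). Bcl11b, a factor of T cell commitment that skin also makes, was 45.0 and 31.9 CPM in the tumours and rose by 3.23 ± 0.61 (adjusted p = 0.00974). Cd8a, the cytotoxic co-receptor, had 44.3 and 1.13 CPM in the tumours, with tumour 3 inside the ascites range of 0.441 to 5.86 CPM. Without tumour 2 no T cell gene was called by edgeR (median 1.43), and without tumour 3 there were 14 calls. Among NK and cytotoxic genes 3 of 13 were higher, and none by edgeR without tumour 2. Prf1, perforin, rose by 2.52 ± 0.63 (adjusted p = 0.0359) and Tbx21, the factor T-bet, by 2.97 ± 0.73 (adjusted p = 0.0328), with 4.39 and 4.07 CPM of Tbx21 in the tumours.

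Macrophage genes were lower in 7 of 15 members and higher in none by edgeR, with a median of -2.97. In 14 of the 15 both tumours lay below all 6 ascites libraries, against 8.9% of all genes tested. The summed level of the list was 1305 and 600.0 CPM in tumours 2 and 3 and 2684 to 18870 CPM in ascites. Itgam (ENSMUSG00000030786), the integrin CD11b of myeloid cells, had 45.8 and 30.2 CPM in tumours 2 and 3 and a lowest, median and highest level of 348, 706 and 2717 CPM in ascites. The 2 tumours were close together, and the log2 fold change of Itgam was -4.75 ± 1.06 (adjusted p = 0.022). The complement chains C1qa, C1qb and C1qc, made by tissue macrophages, changed by -2.97, -2.95 and -3.10. For C1qa the tumours had 48.8 and 50.6 CPM and ascites 141 to 727 CPM (median 383). Cd68, a lysosomal protein of macrophages, changed by -3.34 ± 0.79 (adjusted p = 0.0282), Csf1r, the receptor for their growth factor, by -2.90 ± 0.78 (adjusted p = 0.0482), and Cd14, the endotoxin co-receptor, by -2.10 ± 0.57 (adjusted p = 0.0485). Adgre1, the F4/80 antigen, stood at 26.1 and 34.3 CPM in the tumours and 73.1 to 556 CPM in ascites and did not pass (adjusted p = 0.0696). With either tumour left out no macrophage gene was called by edgeR, while the list median was -3.16 without tumour 2 and -2.97 without tumour 3.

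Genes of large peritoneal macrophages, the resident cells of the cavity, were lower in 5 of 18 members (median -1.81). Without tumour 2 none was called by edgeR (median -2.87), and without tumour 3, 2 were lower and 1 higher (median -2.54). Padi4 (ENSMUSG00000025330), first named above, had 1.52 and 2.60 CPM in tumours 2 and 3 and a lowest, median and highest level of 30.0, 151 and 377 CPM in ascites, and changed by -6.40 (adjusted p = 0.0139). Saa3 had 3.39 and 0.196 CPM in the tumours, against 100.3 to 200.3 CPM (median 153) in ascites, and changed by -6.39 ± 1.56 (adjusted p = 0.0328). Both genes were at or under 3.4 CPM in each tumour and at or over 30.0 CPM in each ascites library. Within ascites, Saa3 did not follow the summed macrophage level. It was lowest in first tap 2 (100.3 CPM), where that sum was highest (18870 CPM). In first tap 1, where the sum was lowest (2684 CPM), Saa3 had 191 CPM. Prg4 changed by -4.71 ± 1.21 (adjusted p = 0.0393) and F5, coagulation factor V, by -3.63 ± 0.98 (adjusted p = 0.0475). Alox15, a lipoxygenase of these cells, had 0.782 and 3.19 CPM in the tumours and 96.5 to 1084 CPM (median 160.0) in ascites, without overlap, and its change of -7.46 ± 2.31 did not pass (adjusted p = 0.0809). Gata6, their lineage factor, is made by other cells of the peritoneum too and had 26.4 and 172 CPM in the tumours and 71.5 to 282 CPM in ascites. Timd4, a receptor for dying cells, had 86.1 and 2.01 CPM in the tumours and 6.74 to 24.5 CPM (median 15.4) in ascites (adjusted p = 0.371).

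**Figure D4:**
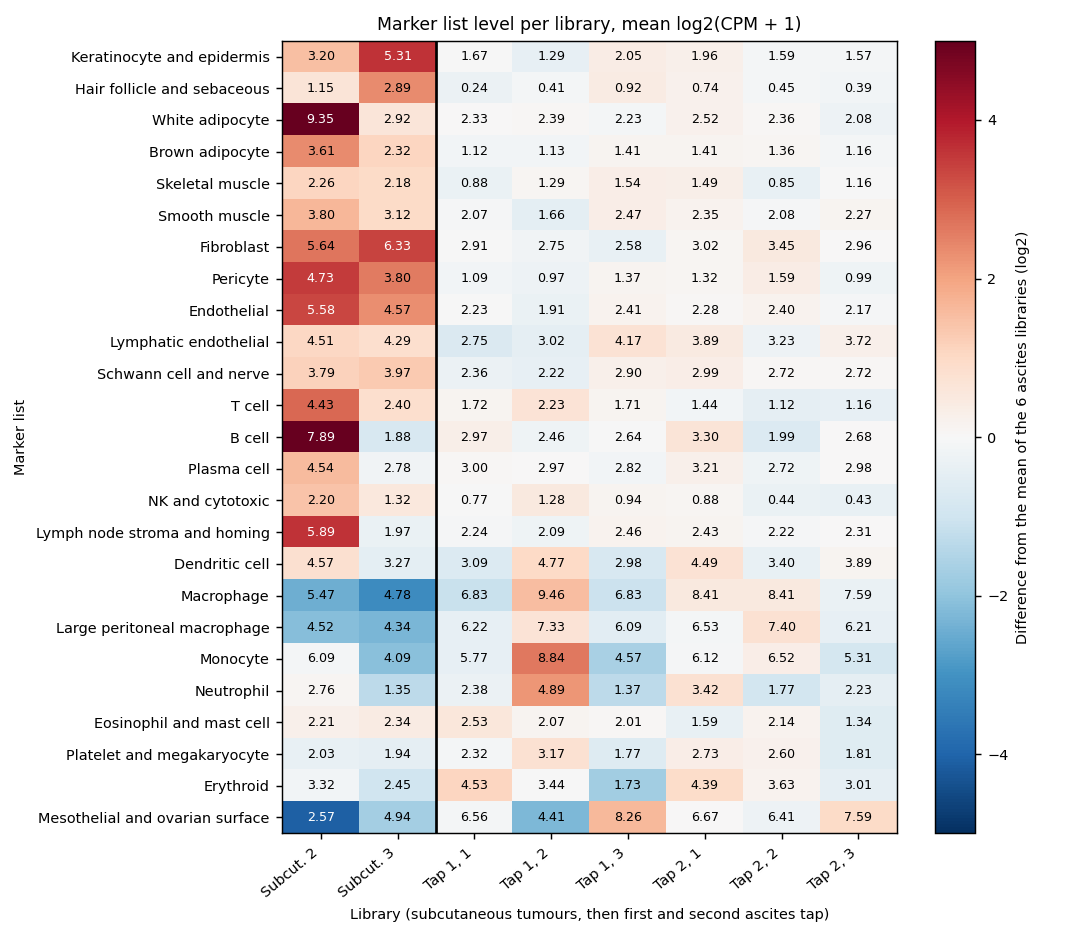
Mean log2(CPM + 1) of the members of 25 marker lists (rows) in each of 8 libraries (columns, subcutaneous tumours left of the line), with colour for the difference from the mean of the 6 ascites libraries. Tumour 2 stands out at 9.35 for white adipocyte and 7.89 for B cell genes, tumour 3 at 5.31 for keratinocyte genes, and macrophage genes are at 5.47 and 4.78 in the tumours against 6.83 to 9.46 in ascites.

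Among 18 complement genes 5 were lower, of which C1qa, C1qb and C1qc are also counted among the macrophage genes above, and Cfd was higher through tumour 2. C5ar1 had 9.64 and 7.51 CPM in tumours 2 and 3 and 52.1 to 304 CPM (median 135) in ascites and changed by -4.09 ± 0.78 (adjusted p = 0.0101), and C3ar1, the receptor of C3a, changed by -3.99 ± 0.76 (adjusted p = 0.0105). Without tumour 2 no complement gene was called by edgeR, and without tumour 3 C3ar1 was still lower, at -4.81 (adjusted p = 0.0235). Of 15 genes of alternative activation and arginine use 2 were lower, Arg1 and the folate receptor Folr2, at -3.61 ± 0.77 (adjusted p = 0.0179). Mrc1, the mannose receptor, had 43.0 and 27.8 CPM in the tumours and 86.6 to 1581 CPM in ascites and did not pass (adjusted p = 0.0992). Pf4, a platelet and macrophage chemokine, changed by -3.79 ± 0.99 (adjusted p = 0.0427), and was the 1 gene of 9 platelet genes called. Among 30 chemokines, Ccl6 and Pf4 were lower and Ccl11, Cxcl9 and Cxcl14 higher. Cxcl9, which interferon gamma induces and which draws T cells, had 44.8 and 14.5 CPM in tumours 2 and 3 and a lowest, median and highest level of 0, 0.132 and 1.07 CPM in ascites, and rose by 7.30 ± 1.11 (adjusted p = 0.00361). Ccl11, eotaxin, rose by 7.07 ± 0.93 (adjusted p = 0.00165) and Cxcl14, made by skin and stroma, by 2.91 ± 0.46 (adjusted p = 0.00408), each with both tumours above ascites, and all 3 were called with either tumour left out.

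Monocyte, neutrophil, eosinophil and mast cell, and erythroid genes gave no call by edgeR among 8, 13, 14 and 9 members tested, and the mean level of each list overlapped between the groups. F13a1, the factor XIII subunit of monocytes and macrophages, had 31.1 and 7.90 CPM in tumours 2 and 3, below all ascites libraries at 149.7 to 2383 CPM, and did not pass (adjusted p = 0.0558). The neutrophil level was 2.76 and 1.35 in tumours 2 and 3 and 1.37 to 4.89 in ascites, as mean log2(CPM + 1). Of 12 dendritic cell genes, Siglech of plasmacytoid cells was higher, at 3.92 ± 0.74 (adjusted p = 0.00965), and at 1.07 (adjusted p = 0.489) without tumour 2. MHC class I genes gave no call among 10 members and class II genes 2 among 9, H2-Oa and H2-Ob, both through tumour 2. The class II chain H2-Aa had 1164 and 518 CPM in the tumours and 98.3 to 616 CPM in ascites. Of 14 checkpoint genes Ido1, the tryptophan-degrading enzyme, was higher, at 4.15 ± 1.06 (adjusted p = 0.038), and at 2.99 (adjusted p = 0.268) without tumour 2. Ctla4, an inhibitory receptor of T cells, had 3.69 and 1.37 CPM in the tumours and 0 to 0.904 CPM in ascites, without overlap, and did not pass (adjusted p = 0.0563). Over all genes tested 5.44% were called higher, and the single dendritic cell and checkpoint calls are near that share. Inflammatory cytokines gave no call by edgeR among 18.

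Genes of the mesothelium and ovarian surface, the lineage of ID8, gave no call among 17 members by edgeR, with a median of -3.77. Without tumour 3, 2 were called lower (median -5.72), and without tumour 2 none was called by edgeR (median -2.79). Their level was 2.57 and 4.94 in tumours 2 and 3 and 4.41 to 8.26 in ascites. Wt1, a factor of mesothelium and of serous ovarian cancer, had 23.0 and 385 CPM in the tumours and a lowest, median and highest level of 139.7, 478 and 609.6 CPM in ascites. Msln, mesothelin, had 0.434 and 30.0 CPM in the tumours and 44.0 to 584 CPM (median 136) in ascites, both tumours below, and did not pass (adjusted p = 0.144). Its log2 fold change was -2.79 (adjusted p = 0.305) without tumour 2 and -8.89 (adjusted p = 0.0217) without tumour 3, so it passed with tumour 2 alone. Upk1b, a uroplakin, had 0.261 and 12.6 CPM in the tumours and 27.4 to 1317 CPM (median 266) in ascites (adjusted p = 0.0768). Tumour 2 thus had the lowest level of this list among the 8 libraries and the highest levels of the fat and B cell lists. The part of this difference in any other result was not tested. Of 12 Mullerian and ovarian carcinoma genes 4 were higher, Cldn4, Sox17, which endothelium also makes, and the hormone receptors Esr1 at 1.63 ± 0.34 (adjusted p = 0.0165) and Pgr at 6.40 ± 1.36 (adjusted p = 0.0175). Without tumour 2 these were 0.92 (adjusted p = 0.26) and 4.35 (adjusted p = 0.172), and 1 gene of the list was called.

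The study asks where ID8 tumours stand between epithelial and mesenchymal states, and some members of both kinds were higher under the skin. The mean and the summed levels of these lists stood differently against ascites. As mean log2(CPM + 1), the epithelial junction level was 3.69 and 3.55 in tumours 2 and 3 and 2.12 to 3.28 in ascites. The mesenchymal and cytoskeletal level was 5.47 and 6.23 in the tumours and 4.57 to 5.13 in ascites. Neither summed level, in which the most abundant members weigh most, stood above the ascites range. The epithelial junction list summed to 423 and 419 CPM in tumours 2 and 3 and to 213 to 1632 CPM in ascites. The mesenchymal and cytoskeletal list summed to 2875 and 7014 CPM in the tumours and to 6794 to 24759 CPM in ascites, tumour 2 lying below every ascites library. Epithelial junction genes were higher in 8 of 24 members (median 1.57), in 0 without tumour 2 and in 4 without tumour 3. Esrp1, a splicing regulator of epithelium, had 13.8 and 19.4 CPM in tumours 2 and 3 and 0 to 0.977 CPM in ascites and rose by 5.58 ± 1.16 (adjusted p = 0.0159). Grhl2, an epithelial factor, rose by 3.75 ± 0.84 (adjusted p = 0.0216) and Ocln, occludin, by 2.74 ± 0.62 (adjusted p = 0.0232). Cdh1, E-cadherin, had 55.3 and 49.7 CPM in the tumours and 5.74 to 37.8 CPM (median 14.8) in ascites, without overlap, and its change of 1.59 ± 0.60 did not pass (adjusted p = 0.146). Krt8, a simple epithelial keratin, had 26.7 and 57.1 CPM in the tumours and 32.5 to 467 CPM (median 193) in ascites, and its partner Krt18 had a log2 fold change of -2.49 ± 0.87 (adjusted p = 0.116), which did not pass. Mesenchymal and cytoskeletal genes were higher in 7 of 20 members (median 1.24), in 4 without tumour 2 and in 5 without tumour 3. Snai1, a repressor of Cdh1, had 6.51 and 25.1 CPM in the tumours and 0.808 to 1.81 CPM (median 1.08) in ascites and rose by 3.73 ± 0.43 (adjusted p = 0.000886). The related repressor Snai2 rose by 2.47 ± 0.46 (adjusted p = 0.00951) and the mesenchymal factor Prrx1 by 3.40 ± 0.76 (adjusted p = 0.0226). Zeb1 also passed (adjusted p = 0.0431). Vim, vimentin, had 536 and 1147 CPM in the tumours and 781 to 4024 CPM in ascites and did not pass (adjusted p = 0.5), and Fn1, fibronectin, had 399 and 1529.7 CPM in the tumours, below all ascites libraries at 2587 to 21505 CPM (adjusted p = 0.124). Beside these, the keratinocyte level was 3.20 and 5.31 in tumours 2 and 3 and 1.29 to 2.05 in ascites, and the fibroblast level 5.64 and 6.33 in the tumours and 2.58 to 3.45 in ascites. Their part in either result was not tested.

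Among other programmes, 8 of 19 cholesterol synthesis genes were higher (median 1.13), in 1 without tumour 2 and in 6 without tumour 3. Idi1, an isoprenoid isomerase, had 11.5 and 7.95 CPM in tumours 2 and 3 and 1.99 to 3.45 CPM (median 2.91) in ascites and rose by 1.80 ± 0.33 (adjusted p = 0.00815), and Hmgcs1, which makes the precursor of mevalonate, rose by 1.35 ± 0.29 (adjusted p = 0.018). Of 21 cell cycle genes Plk1, the mitotic kinase, was lower at -1.96 ± 0.50 (adjusted p = 0.0372), and at -1.78 (adjusted p = 0.213) without tumour 2 and -2.16 (adjusted p = 0.107) without tumour 3. The median was -1.24. Mcm2, a replication helicase subunit, had 21.4 and 20.1 CPM in the tumours and 52.8 to 82.8 CPM (median 56.6) in ascites and did not pass (adjusted p = 0.0545). Of 16 immediate early genes 2 were lower, Fos at -3.02 ± 0.76 (adjusted p = 0.0367) and the phosphatase Dusp1 at -2.22 ± 0.49 (adjusted p = 0.0205), and none was called by edgeR with either tumour left out. Glycolysis and hypoxia genes gave no call among 16 by edgeR. Of 30 Hox genes, which set position along the body, 5 were higher, among them Hoxb7 at 3.97 ± 0.91 (adjusted p = 0.0248) and Hoxc8 at 4.47 ± 1.14 (adjusted p = 0.0379), and none of the 30 was called by edgeR without tumour 2. Of 15 mitochondrial genome genes 3 were higher, with mt-Nd1 at 1.59 ± 0.39 (adjusted p = 0.0343) and none called by edgeR without tumour 2, beside the larger mitochondrial share of counts given above. Nerve sheath genes were higher in 3 of 10 members, including the glial factor Sox10 at 4.11 ± 0.87 (adjusted p = 0.0172) and at 3.01 (adjusted p = 0.179) without tumour 2. Interferon response genes gave 1 call of 18, Cxcl9, near the 5.44% called higher over all genes tested. Coagulation genes gave 1 call in each direction of 18. Vwf of endothelium was higher at 2.70 ± 0.64 (adjusted p = 0.0293), a count near that share. F5 was lower, against 0.878% called lower over all genes tested. The bar plot of calls sets each list beside the share over all genes.

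**Figure D5:**
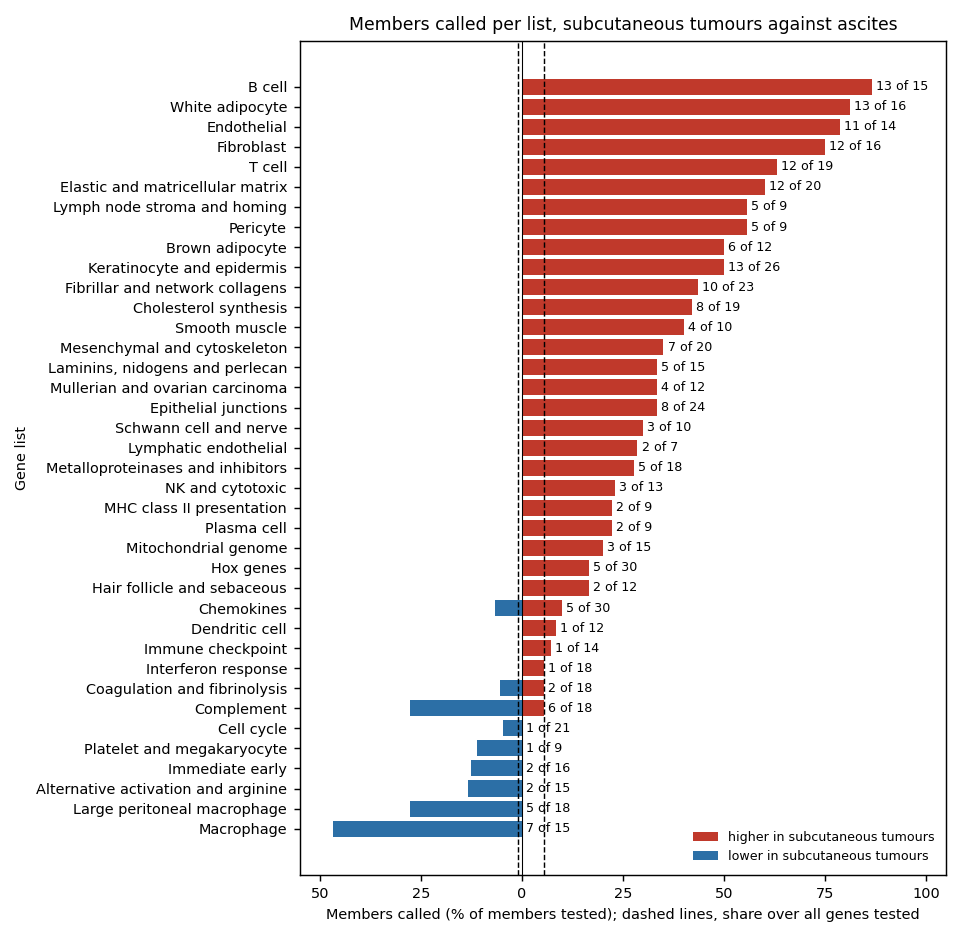
Share of the tested members of each list that were called higher (red, right of 0) or lower (blue, left of 0) in subcutaneous tumours, with the number called of the number tested. Dashed lines mark the 5.44% higher and 0.878% lower over all genes tested, and lists with no call are not drawn. B cell (13 of 15) and white adipocyte (13 of 16) genes lead the higher calls, and macrophage genes (7 of 15) the lower ones.

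Some genes were far above ascites in both tumours. These were chosen after their values were seen, by the gap between the lower tumour and the highest ascites library among the 267 genes called higher without overlap and with at least 10 CPM in both tumours. The widest gap was that of Rgs5, at 6.28 on the log2 scale of CPM plus 0.5, followed by Dsc3, Sparcl1 at 5.05 and Ly6c1 at 4.91. Ly6c1, a surface protein of endothelium and of some leukocytes, has a near-identical copy, Ly6c2, so its reads are uncertain. It had 96.1 and 35.0 CPM in tumours 2 and 3 and 0.0572 to 0.680 CPM in ascites. Svep1, a large matrix protein, had 149.5 and 94.9 CPM in the tumours and 0 to 2.72 CPM in ascites. Apod, a lipid carrier of skin and nerve stroma, had 18.9 and 30.2 CPM in the tumours and 0 to 0.229 CPM in ascites. Mgll, the monoglyceride lipase, was 378 and 44.5 CPM in the tumours and 0.438 to 1.36 CPM in ascites. A call was a condition of this choice. The log2 fold changes of the 4 were 7.74 ± 0.63 (adjusted p = 0.000159), 7.41 ± 0.99 (adjusted p = 0.00184), 8.89 ± 1.29 (adjusted p = 0.00277) and 7.96 ± 0.79 (adjusted p = 0.000434).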

How the data were processed

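RNA was isolated with Trizol, and libraries of total RNA were made with a modified directional NEBNext Ultra II kit, per the labels' protocols. The submitters' processing notes name HISAT, HISAT2, featureCounts and DESeq2, with no versions, and the builds hg19 and mm39. The deposited values are the authors' whole-number read counts per Ensembl gene, not normalized, for 43629 genes, of which 39055 had a count. A second deposited table was identical. In the table, 1 column with a subcutaneous heading has no counterpart among the labelled samples and was left out. Symbols were looked up by identifier (42462 matched).

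Counts were analysed in R 4.3.3. Genes over 0.5 CPM (read counts scaled to a common library total) in at least 2 of 17 libraries were tested (22671), with TMM scaling and edgeR 4.0.16's quasi-likelihood test (robust, two-sided, 9 residual degrees of freedom) over all 17 libraries in 8 groups. The contrast is the subcutaneous mean minus the mean of both taps, with Benjamini-Hochberg adjustment across every tested gene. CPM in the text is scaled to the tested genes' total times the TMM factor, fold changes are log2 with standard errors (SE), and n is 2 and 6. Totals of 15014218 to 38860082 counts in the 8 libraries set the counting error. How reads shared by near-identical copies were assigned is not stated in the labels.

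The rule named up to 15 genes in each direction with the largest log2 fold change among genes called, with a size of at least 1, a mean of 10 CPM or more in the higher group, and groups that do not overlap. Clone names, numbered gene models and receptor segments were left out, 484 higher and 167 lower genes met the rule, and members of the lists were named beside them. The 47 gene lists, the members and the tests were chosen with earlier results of these data known, so a list's direction is no independent evidence. The tests were checked on simulated counts. Alternatives included limma 3.58.1 (voom) and DESeq2 1.42.0 as a test. Promoter sequences are RefSeq's for GRCm38.p6, and no coordinates of the counts' own build were used.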

Additional observations from a re-analysis of the deposited data

Results flagged for a closer look

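Of 82 sets of 6 ascites values (47 list levels, 5 library measures and the 30 rule-named genes), 4 had 1 library far from the other 5, where chance alone flags about 5%. The epithelial junction level of first tap 2 was 2.12 as mean log2(CPM + 1), against 2.85 to 3.28 in the other ascites libraries. The same library had an elastic and matricellular level of 2.76, against 3.47 to 3.85. The complement level of first tap 1 was 5.35, against 5.90 to 6.15. Acss3, an acyl-CoA synthetase, had a log2(CPM + 1) of 0.911 in first tap 3, against 0 to 0.105 in the others. The subcutaneous group has 2 libraries and was not examined in this way.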

How the results depend on the processing

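The main count was 1432 genes, 1233 higher and 199 lower (5013 at an unadjusted p under 0.05). The share of higher calls was 86.1%, against 69.9% with DESeq2's test, and the median log2 fold change over all genes moved from 0.06 to 0.16 with DESeq2's size factors, 0.21 with library size alone and 0.31 with no filter. Counts stayed within 1.5 times with DESeq2's size factors, with no filter and with the term for the S prefix. That term leaves SCT and SM together. With library size alone 88 were lower. DESeq2's Wald test called 2861 (1999 higher, 862 lower) and left 989 adjusted p-values without a value. Voom with quality weights called 496 (476 and 20), a fit of only the 8 libraries 282 (265 and 17), the first tap alone 307 (274 and 33), the second tap alone 342 (309 and 33), and the 4 ascites libraries with the SM prefix 624 (549 and 75). Leaving out 1 library at a time gave 406 to 1792 calls, 395 to 1546 higher and 11 to 308 lower, with the lowest totals without subcutaneous tumour 2 (406), second tap 3 (815) and second tap 2 (838), and 950 without first tap 1. Chosen after seeing the data, leaving out first tap 3 and second tap 1, the ascites libraries with the most genes detected, gave 2182 (2006 higher). The correlation of the deviations of same-numbered first and second tap libraries was -0.55, -0.04 and -0.04. Between differently numbered taps it ran from -0.42 (first tap 3 with second tap 2) to 0.59 (first tap 1 with second tap 2). Deviations from means of 3 libraries cannot show whether taps share a mouse, so no pairing was assumed in the main test. With the replicate number as a block in the 8 libraries, 0 genes were called by edgeR, 0 in each direction, with 2677 at an unadjusted p under 0.05. The cause of these shifts was not tested, except that fits of fewer libraries have fewer samples by construction.

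The direction turned in 26 values of single genes, and none of the turned genes was called in that setting. With 1 library left out at a time, the log2 fold change ranged from -1.07 to 2.82 for Ly6c2, -1.48 to 2.41 for Ccr7, -0.38 to 6.57 for Cr2, -0.51 to 5.73 for Cxcr5, -1.32 to 5.71 for Cd22, -2.53 to 5.17 for Pou2af1, -0.89 to 2.64 for Jchain, -1.41 to 2.40 for Pfkfb3, -0.40 to 1.46 for Psmb9 and -0.73 to 1.302 for Tap1, and from -0.056 to 5.38 for H2-Oa, -2.30 to 4.99 for H2-Ob, -0.22 to 2.79 for Ciita, -2.54 to 4.69 for Btla, -2.40 to 4.18 for Cxcl13, -1.88 to 5.40 for Ucp1, -0.78 to 4.51 for Cd8a and -2.92 to 2.49 for Timd4, with the lowest value without subcutaneous tumour 2. It ranged from -4.40 to 4.41 for Prg2, -2.45 to 4.89 for Ear6, -4.15 to 8.86 for Krt25, -1.72 to 4.09 for Krt14, -0.86 to 6.72 for Krt71 and -0.95 to 4.57 for Tchh, with the lowest value without subcutaneous tumour 3. For Xcr1 it ranged from -0.88 to 0.59, the highest value without first tap 2, and was 0.24 with voom. The cause was not tested. Of the other values of 233 genes over all settings, 3665 kept direction and side of the threshold, 864 lost it and 102 gained it, and 770 list medians moved by less than the SD of the list's level between the 2 tumours while 170 moved by more.

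The 2 subcutaneous libraries set the limit: a gene high in 1 tumour alone passed the test as a group difference. Depth in tumour 3 was the lowest of the 8 libraries, so values under 1 CPM rest on few counts. Genes too low to be tested took 0.599% of counts in tumour 3, 0.159% in first tap 3 and 0.141% in second tap 1. In the rest of the 8 libraries they took at most 0.0652%. The part of this in values under 1 CPM was not tested.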
